A study of Homo sapiens with 16 samples.

Results

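Genes of the unfolded protein response and of protein folding in the endoplasmic reticulum (ER) were examined in LNCaP (clone FGC), a prostate cancer cell line of human origin that grows in response to androgen. The 34 genes were taken by name from the 60642 gene symbols of the deposited table and are grouped into 7 roles: the IRE1 arm (3 genes), the ATF6 arm and its relatives (4), the PERK arm (2), chaperones and cochaperones (6), thiol oxidoreductases (8), the calnexin cycle (3) and ER-associated degradation (8). All groups were grown for 72 h with 5% fetal bovine serum, kept for 48 h with 5% serum that had been stripped with charcoal to remove androgens, and then treated for 48 h. The androgen receptor agonist dihydrotestosterone (DHT) was given at 10 nM, and each antagonist of that receptor at 10 µM: bicalutamide (BIC), apalutamide (APA, labelled ARN) or enzalutamide (ENZ). Of the 8 groups of 2 replicates, VEH had both solvents (ethanol and DMSO) and DHT the agonist with DMSO. BIC.VEH, ENZ.VEH and APA.VEH had an antagonist without DHT, while BIC.DHT, ENZ.DHT and APA.DHT had an antagonist together with it. The study asked how DHT, and the antagonists with and without it, changed the drug sensitivity predicted from gene expression in these cells. Gene levels were estimated from bulk RNA sequencing and are given as TPM, a unit that divides reads by transcript length and scales each library to the same total, so that levels can be set side by side between genes.

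Proteins that enter the secretory pathway fold in the ER with the help of chaperones, enzymes that form and rearrange disulfide bonds, and the calnexin cycle, which reads the sugar chains of glycoproteins. When unfolded proteins build up, the sensors IRE1 (encoded by ERN1), ATF6 and PERK (EIF2AK3) signal to the nucleus and to the ribosome: IRE1 splices the mRNA of the transcription factor XBP1, ATF6 is cut in the Golgi to release its own transcription factor domain, and PERK slows translation. Proteins that fail to fold are returned to the cytosol and degraded. The luminal prostate epithelium is a secretory tissue, and CREB3L4, an ATF6 relative, is known there as an androgen-induced gene. Gene-level TPM does not show whether XBP1 mRNA was spliced, and it shows neither the cutting of ATF6 nor the phosphorylation of PERK.

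Some members' promoters hold the DNA elements through which ATF6 and XBP1 act, and the windows around them are shown as a description. Only exact letters were searched for, so a member without a match may still be a stress target. Each RefSeq promoter of GRCh38.p14, 250 bases before to 50 bases after a gene's start, was searched on both strands for the ER stress response element (ERSE, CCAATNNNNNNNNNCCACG), for ERSE-II (ATTGGNCCACG), for the core of the unfolded protein response element (TGACGTGG) and for the palindromic androgen response element (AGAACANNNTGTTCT). A gene counted once if any of its promoters held the element. Of the 32 members with a promoter in that set, which held none for PDIA3 and DERL1, 7 had an ERSE, against 0.0916% of all 27305 genes. ERSE-II was found in 3 members (0.0696% of all genes) and the core element in DNAJC10 and HYOU1 (0.927%). The androgen response element was found in no member (0 of 32, against 0.00366% of all genes), which says only that these letters were not in these windows. In HYOU1 the core element overlapped an ERSE-II by 5 bases. The windows below give the element in capitals with 15 bases on either side, 5′ to 3′ on the strand of the gene, so that an element in the opposite orientation appears as its reverse complement. Sites of PDIA6 and CANX lay before internal start sites, at chr2:10812838-10812886 and chr5:179698763-179698811.
HSPA5 ERSE, chr9:125241376-125241424, minus strand: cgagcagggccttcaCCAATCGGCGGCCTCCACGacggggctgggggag
XBP1 ERSE, chr22:28800588-28800636, minus strand: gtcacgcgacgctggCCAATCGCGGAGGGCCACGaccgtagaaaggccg
HSP90B1 ERSE, chr12:103930201-103930249, plus strand: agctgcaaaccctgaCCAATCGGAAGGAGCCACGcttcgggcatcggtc
HSP90B1 ERSE, opposite, chr12:103930306-103930354, plus strand: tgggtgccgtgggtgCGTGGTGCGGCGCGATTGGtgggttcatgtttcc
CALR ERSE, opposite, chr19:12938369-12938417, plus strand: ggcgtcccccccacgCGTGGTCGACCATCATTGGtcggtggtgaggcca
CRELD2 ERSE, opposite, chr22:49918539-49918587, plus strand: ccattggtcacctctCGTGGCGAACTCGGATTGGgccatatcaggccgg
HERPUD1 ERSE-II, chr16:56932010-56932050, plus strand: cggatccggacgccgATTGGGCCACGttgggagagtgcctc
SDF2L1 ERSE-II, opposite, chr22:21642099-21642139, plus strand: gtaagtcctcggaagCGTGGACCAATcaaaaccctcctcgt
HYOU1 ERSE-II, opposite, chr11:119057259-119057299, minus strand: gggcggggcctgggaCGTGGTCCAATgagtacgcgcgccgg
HYOU1 ERSE-II, opposite, chr11:119057365-119057405, minus strand: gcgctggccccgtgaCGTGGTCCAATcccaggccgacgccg

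The libraries held the markers of luminal prostate cells, with KRT8 between 546 and 976 TPM, KRT18 between 452 and 908 TPM and HOXB13 between 149 and 258 TPM. The androgen-responsive luminal genes KLK2 (2.50 to 494 TPM), KLK3 (20.4 to 4102 TPM) and TMPRSS2 (24.1 to 429 TPM) rose with DHT, by 6.57, 6.42 and 3.15 on the log2 scale, as did KRT18 (0.64), and KRT8 rose and HOXB13 fell (-0.49) with the replicate number as a block, so most of this list moved in the same direction as the members. Of 10 markers of other cell types, KRT5, TP63, PTPRC, CD3E, PECAM1 and COL1A2 stayed at or below 0.16 TPM, while COL1A1 lay between 11.4 and 32.6 TPM; the summed level of the 10 was 31.1 to 37.3 TPM in VEH and 20.3 to 28.3 TPM in DHT. With DHT, COL1A1 fell (log2 fold change -1.07) while ACTA2 and KRT14 rose (1.02 and 1.34), KRT14 staying at or below 1.68 TPM. About 40 M read pairs were made from each library per the labels, but TPM keeps no depth. Precision was therefore judged only from the spread between replicates, pooled over the groups and moderated across genes. Replicate 1 of ENZ.DHT and of APA.DHT stood apart from the other libraries: the members summed to 3505 and 3476 TPM there, against 4256 to 5638 TPM elsewhere, and 26 and 28 of the 33 tested members were lower in replicate 1 than in replicate 2, against 14 to 23 in the other groups. Mitochondrial transcripts took 14.7% (DHT replicate 2) to 22.3% (DHT replicate 1) of a library. MKI67, which marks dividing cells, was lower in replicate 1 than in replicate 2 of every group. It was at 2.18 and 9.28 TPM in VEH, 11.7 and 24.4 TPM in DHT, 1.11 and 9.99 TPM in ENZ.DHT and 2.19 and 8.46 TPM in APA.DHT. In BIC.DHT it was at 6.07 and 14.8 TPM. Without DHT it was at 2.91 and 10.8 TPM with BIC, 0.83 and 7.90 TPM with ENZ and 1.42 and 8.05 TPM with APA. The part of these differences in the results below was not tested, and in bulk RNA fewer cells of a kind and less RNA per cell cannot be told apart.

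Member levels in these cells were dominated by a few folding factors. Over the 16 libraries the calcium-binding lectin chaperone CALR averaged 914 TPM and held 20.6% of the members' sum, followed by the disulfide isomerase P4HB (831 TPM, 18.8%), its relative PDIA3 (512 TPM, 11.6%) and the ER member of the HSP90 family, HSP90B1 (436 TPM, 9.85%). These 4 genes held 60.8% of the sum. At the other end, 11 members had a median under 20 TPM, among them the sensors ERN1 (median 9.07 TPM) and ATF6 (12.03 TPM) and the mannosidase-like proteins EDEM2 (11.8 TPM) and EDEM3 (12.6 TPM). CREB3L1, an ATF6 relative, did not exceed 0.17 TPM in any library and was not tested, which left 33 of 34 members among the 16636 genes tested. PDIA3 has a processed copy, PDIA3P1, listed at 23.7 to 41.5 TPM, so some of its reads may have been divided between them.

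The members summed to 4362 ± 80.0 TPM in VEH and to 5567 ± 100.3 TPM in DHT (SD, n = 2), a ratio of 1.28 between the means. With limma on log2(TPM + 1) and Benjamini-Hochberg adjustment over all genes, where a call means an adjusted p below 0.05, 6 members rose with DHT and 0 fell: the disulfide isomerases PDIA5 and P4HB, the thiol-dependent retention factor ERP44, the ER cochaperone SDF2L1, the BiP-binding protein MANF and the transcription factor CREB3L4. That is 18.2% of the members tested, where 3.63% of all genes were called higher. Of the 16636 genes tested, 604 were called higher and 1105 lower. With the replicate number as a block, 12 members were called higher and 0 lower. Of all genes 10.6% were called higher in that fit (1762 genes), and 2797 genes were called lower. The added members were HSP90B1, PDIA4, PDIA6, DNAJC10, EDEM1 and EDEM3. The median log2 fold change of the members was 0.38, against -0.10 for all genes tested. Above 0 were 32 of 33 members and 6577 of the 16636 genes tested. The members were measured in the same libraries and are not independent of each other. Median-ratio scaling moved the all-gene median from -0.10 to 0.01 and gave 12 called members, with 1908 genes called in either direction against 1709 without it. Fitted to the 4 DHT and VEH libraries alone, 1 member was called, PDIA5 (173 of all genes), and with ENZ.DHT replicate 1 and APA.DHT replicate 1 left out there were 11 (2631 of all genes). In 16 of the 33 members both DHT libraries lay above all 14 other libraries, an order found in 10.5% of all genes tested. Where DHT and VEH libraries are said below not to overlap, this describes 2 libraries against 2. The share of all genes with that order was not counted, so it is no evidence of a change.

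**Figure D1:**
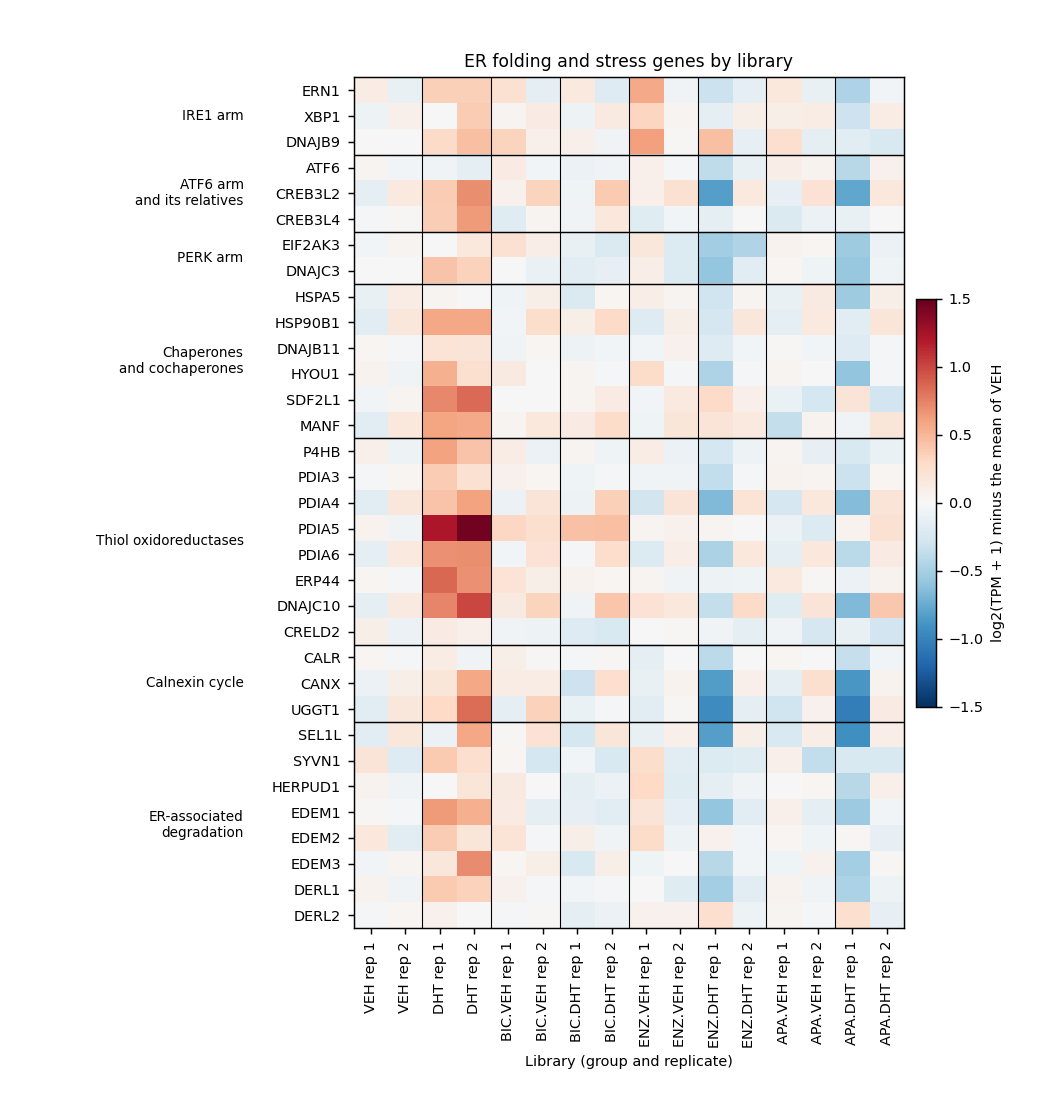
Level of each tested member in each of the 16 libraries (columns, by group and replicate), as log2(TPM + 1) minus the mean of the VEH replicates (colour, log2 units), with genes in rows by role. The DHT columns are the reddest of the map in the thiol oxidoreductase rows, PDIA5 above all, and replicate 1 of ENZ.DHT and of APA.DHT holds the darkest blue cells.

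The thiol oxidoreductases, which make and rearrange disulfide bonds, had the highest summed ratio of the 7 roles, at 1.40, with 1646 and 1618 TPM in the VEH replicates and 2376 and 2199 TPM in the DHT replicates. PDIA5 (chromosome 3, 123067025 to 123162104), which overlaps the microRNA gene MIR7110, stood at 26.1 and 24.1 TPM in VEH replicates 1 and 2 and at 59.4 and 70.3 TPM in DHT. No other library of the series exceeded 34.6 TPM, so both DHT libraries stood well apart. Its log2 fold change was 1.33 (SE 0.12, adjusted p = 7.61e-05). ERP44 (chromosome 9, 99979185 to 100099000) holds back folding enzymes and unfinished proteins in the early secretory pathway, and overlaps UPF3AP3 and LOC105376176 in the annotation. It was at 14.7 and 14.1 TPM in VEH against 27.1 and 23.7 TPM in DHT, with no overlap, and its log2 fold change was 0.77 (SE 0.12, adjusted p = 0.0024). P4HB (chromosome 17, 81843166 to 81860535), the founding protein disulfide isomerase and a subunit of collagen prolyl hydroxylase, was at 857 and 766 TPM in VEH against 1235 and 1088 TPM in DHT. Here too the DHT libraries were above all others, and the log2 fold change was 0.52 (SE 0.14, adjusted p = 0.036). PDIA5 and ERP44 stayed past the threshold whichever DHT or VEH library was left out, and P4HB lost its call each time.

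Of the other 5 oxidoreductases, 3 were called only with the replicate block. PDIA6, a disulfide isomerase that also binds IRE1 and PERK, was at 102 and 125 TPM in VEH against 183 and 184 TPM in DHT, so that the DHT replicates were close and the VEH replicates apart. Its log2 fold change was 0.69 (SE 0.24, adjusted p = 0.0913, 0.00218 with the block). DNAJC10, a reductase that opens disulfide bonds ahead of degradation, had 0.87 (SE 0.32, adjusted p = 0.117, 0.0106 with the block), and PDIA4 had 0.51 (SE 0.33, adjusted p = 0.37, 0.0357 with the block). PDIA3, which works on glycoproteins held by calnexin and calreticulin, was at 499.7 and 522 TPM in VEH against 663 and 599 TPM in DHT. The groups did not overlap, and the log2 fold change of 0.30 was not called (adjusted p = 0.21, 0.0824 with the block). CRELD2, a secreted isomerase with an ERSE, had a log2 fold change of 0.09 with a 95% interval of -0.16 to 0.35.

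Among the chaperones, the general ER chaperone and the accessory proteins had different values. HSPA5 (chromosome 9, 125234853 to 125241343) encodes BiP, the ER member of the HSP70 family and the usual readout of ER stress. It was at 204 and 237 TPM in VEH against 225 and 220.5 TPM in DHT, and the DHT values lay between the VEH values. The log2 fold change was 0.02 (SE 0.20, 95% interval -0.41 to 0.45, adjusted p = 0.969). SDF2L1 (chromosome 22, 21642302 to 21644299), which joins BiP and DNAJB11 in chaperone complexes, was at 19.9 and 20.98 TPM in VEH against 34.2 and 37.6 TPM in DHT. The DHT libraries were well clear of all others, and the log2 fold change was 0.78 (SE 0.16, adjusted p = 0.0108). MANF (chromosome 3, 51385291 to 51389397), which holds BiP on its clients and can be secreted, was at 123 and 155 TPM in VEH against 209 and 206 TPM in DHT. The VEH replicates differed more than the DHT replicates, the groups did not overlap, and the log2 fold change was 0.58 (SE 0.16, adjusted p = 0.0462). The call of MANF was lost with any of these 4 libraries left out, and that of SDF2L1 with any but DHT replicate 1. HSP90B1 rose only in the fit with the block, by 0.58 (SE 0.20, adjusted p = 0.0918, 0.00133 with the block). HYOU1, which exchanges the nucleotide bound to BiP, had 0.38 (adjusted p = 0.261) and DNAJB11, a BiP cochaperone, 0.20 (adjusted p = 0.28).

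**Figure D2:**
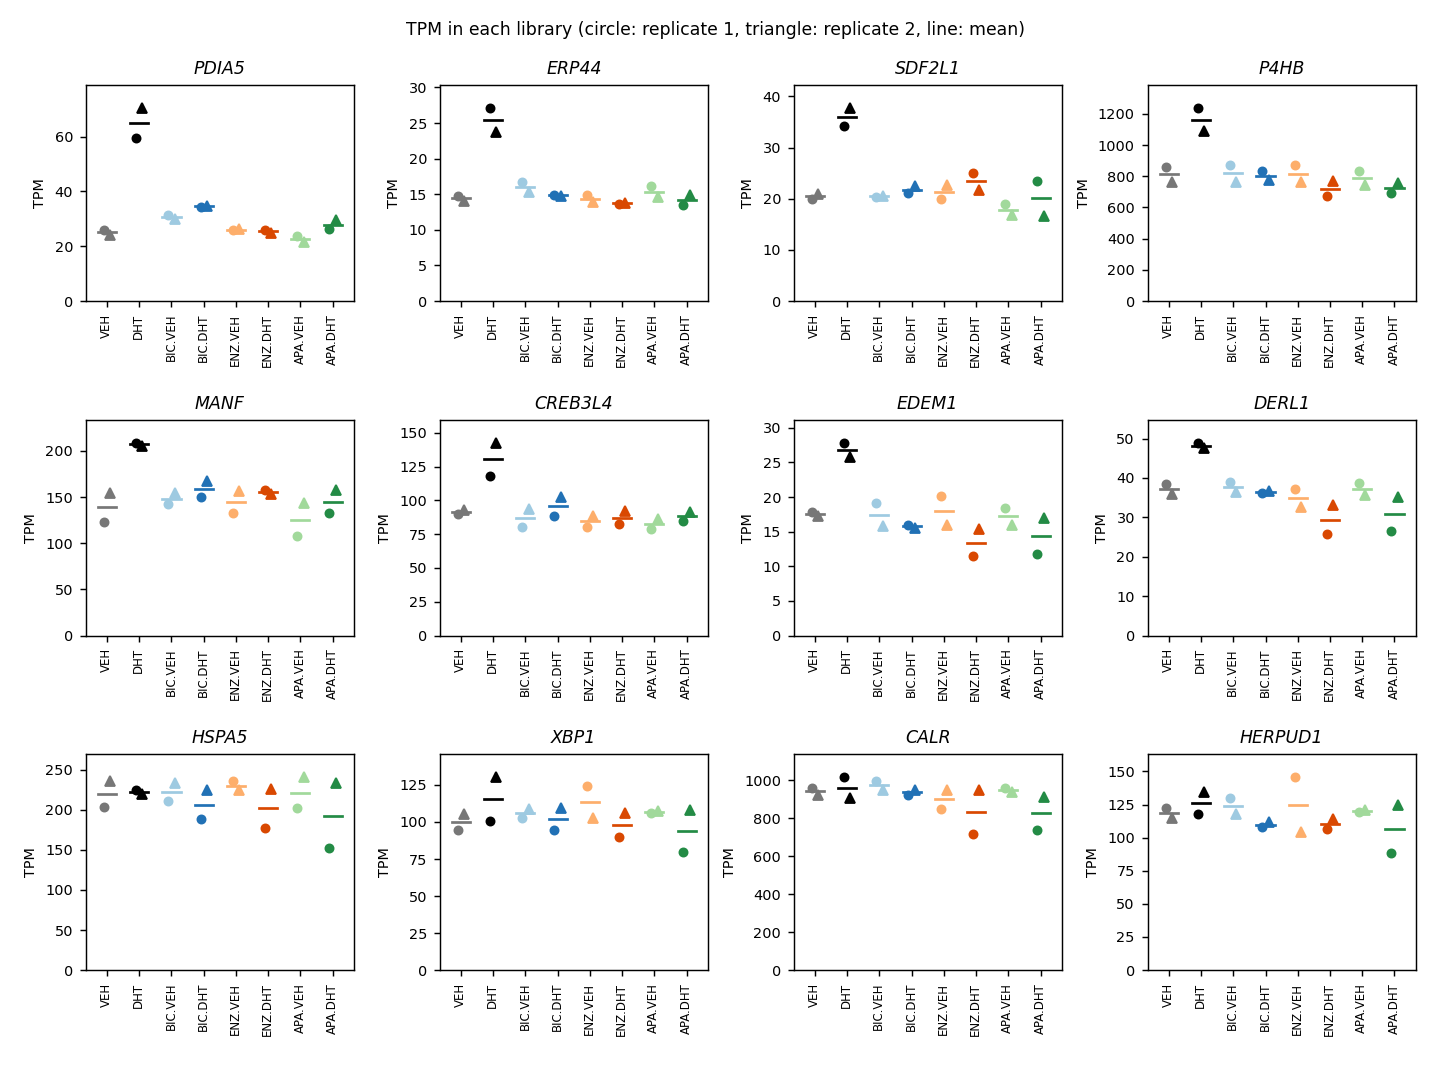
TPM of 12 members in the 16 libraries (circle replicate 1, triangle replicate 2, line the mean of a group), each panel with its own axis from 0. PDIA5, ERP44, SDF2L1 and P4HB have both DHT libraries above all others, while HSPA5, XBP1, CALR and HERPUD1 have DHT values within the range of the other groups or next to it.

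None of the 3 sensors was called. ERN1 was at 10.2 and 8.60 TPM in VEH against 12.3 and 12.3 TPM in DHT, without overlap, and its log2 fold change of 0.36 (SE 0.24) was below the threshold in both fits (adjusted p = 0.382, 0.24 with the block). ATF6 was at 12.8 and 12.03 TPM in VEH against 11.9 and 11.1 TPM in DHT, with both DHT libraries below both VEH libraries. Its log2 fold change was -0.10 (SE 0.17, adjusted p = 0.759), and under median-ratio scaling this was 0.02. EIF2AK3 was at 19.8 and 20.8 TPM in VEH against 20.3 and 22.7 TPM in DHT, which overlap, with a log2 fold change of 0.08 (SE 0.17, adjusted p = 0.819).

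The factors next to the sensors varied. XBP1 (chromosome 22, 28794560 to 28800569) was at 94.5 and 105 TPM in VEH against 100.4 and 130.1 TPM in DHT. DHT replicate 1 lay between the VEH replicates and replicate 2 above them, and the log2 fold change of 0.19 (SE 0.18, adjusted p = 0.535) was 0.01 without DHT replicate 2. The BiP cochaperone DNAJB9, which is induced through XBP1 and restrains IRE1, had 0.37 (adjusted p = 0.357). CREB3L4 (chromosome 1, 153967487 to 153974359), whose span overlaps those of SLC39A1 and JTB, was at 90.2 and 92.9 TPM in VEH against 118 and 143 TPM in DHT. Its log2 fold change of 0.50 (SE 0.13, adjusted p = 0.0376) was a call, which was lost with any DHT or VEH library but DHT replicate 1 left out. CREB3L2, a relative that serves secretory cells with heavy cargo, had 0.54 (SE 0.35, adjusted p = 0.373). DNAJC3, a BiP cochaperone also known to restrain PERK, was at 15.4 and 15.6 TPM in VEH against 21.2 and 19.96 TPM in DHT. Those groups did not overlap, and the log2 fold change of 0.39 was not called (adjusted p = 0.229).

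The calnexin cycle and the degradation machinery held 0 calls with DHT in the fit without the block, with 0 of 3 and 2 of 8 members at an unadjusted p below 0.05, as were 25.1% of all genes. CALR had a log2 fold change of 0.03 (95% interval -0.30 to 0.36), CANX, the membrane-bound lectin chaperone, 0.38, and UGGT1, which marks misfolded glycoproteins for another round, 0.57 (adjusted p = 0.938, 0.522 and 0.371). EDEM1, which trims mannose from failed glycoproteins, was at 17.8 and 17.2 TPM in VEH against 27.8 and 25.9 TPM in DHT. Both DHT libraries were above all others, and its log2 fold change was 0.59 (SE 0.20, adjusted p = 0.0866, 0.0424 with the block). EDEM3 was likewise called with the block alone, at 0.44 (SE 0.22, adjusted p = 0.242, 0.0424 with the block). DERL1, a subunit of the channel that moves proteins back to the cytosol, was at 38.4 and 35.9 TPM in VEH against 48.9 and 47.5 TPM in DHT. The groups did not overlap, and DERL1 was not called (log2 fold change 0.37, adjusted p = 0.163). SEL1L and SYVN1, the core of the ubiquitin ligase of this pathway, had 0.25 and 0.32 (adjusted p = 0.729 and 0.334). HERPUD1, which organises that ligase and carries an ERSE-II, had 0.09, EDEM2 0.28 and DERL2 0.03 (adjusted p = 0.814, 0.323 and 0.915).

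The 10 tested members with an ERSE or ERSE-II had 1 call with DHT (3 with the block) and a median log2 fold change of 0.29, from 0.02 (HSPA5) to 0.78 (SDF2L1). The 21 tested members with neither element had 5 calls (9 with the block) and a median of 0.44. No test was made of that difference. The search took exact letters in these windows only, so the members with neither element are not a set without stress targets. DNAJB9, which is induced through XBP1, is among them.

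Each antagonist was then compared with DHT alone, in cells that all received DHT. These 3 comparisons share the DHT libraries with each other and with DHT against VEH, so a member that was high in the DHT libraries tends to appear lower in all of them, and the values are given side by side without a measure of likeness. No member was called higher in any of them. Of the 16636 genes tested, 242, 788 and 707 were called higher with BIC, ENZ and APA. With the block 1082, 2211 and 2197 genes were called higher, and again no member. BIC.DHT had 3 members called lower, 9.09% of those tested against 1.68% of all genes (12 with the block, against 6.82%). ENZ.DHT had 10 called lower, 30.3% against 4.91% (23 with the block, against 15.9%), and APA.DHT 8, 24.2% against 4.11% (25 with the block, against 14.1%). The median log2 fold change of the members was -0.38 (BIC), -0.60 (ENZ) and -0.60 (APA), where those of all genes were 0.00, -0.01 and 0 on the same scale. The counts with ENZ and APA rested on single libraries: without ENZ.DHT replicate 1 the count with ENZ was 2 and without ENZ.DHT replicate 2 it was 13, while without APA.DHT replicate 1 or 2 that with APA was 3 or 13. Calls over all genes, in either direction, moved as well, from 1605 to 581 and 1799 with ENZ and from 1391 to 747 and 1428 with APA. Leaving out DHT replicate 1 or 2 gave 3 and 3 with ENZ and 4 and 3 with APA, and without both ENZ.DHT replicate 1 and APA.DHT replicate 1 there were 6, 5 and 3 calls with BIC, ENZ and APA (917, 976 and 1173 over all genes). Fitted to the libraries of the groups compared alone, no member was called with any of the 3, and 0, 7 and 0 of all genes. Calls over all genes also fell with each antagonist when either DHT replicate was left out.

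**Figure D3:**
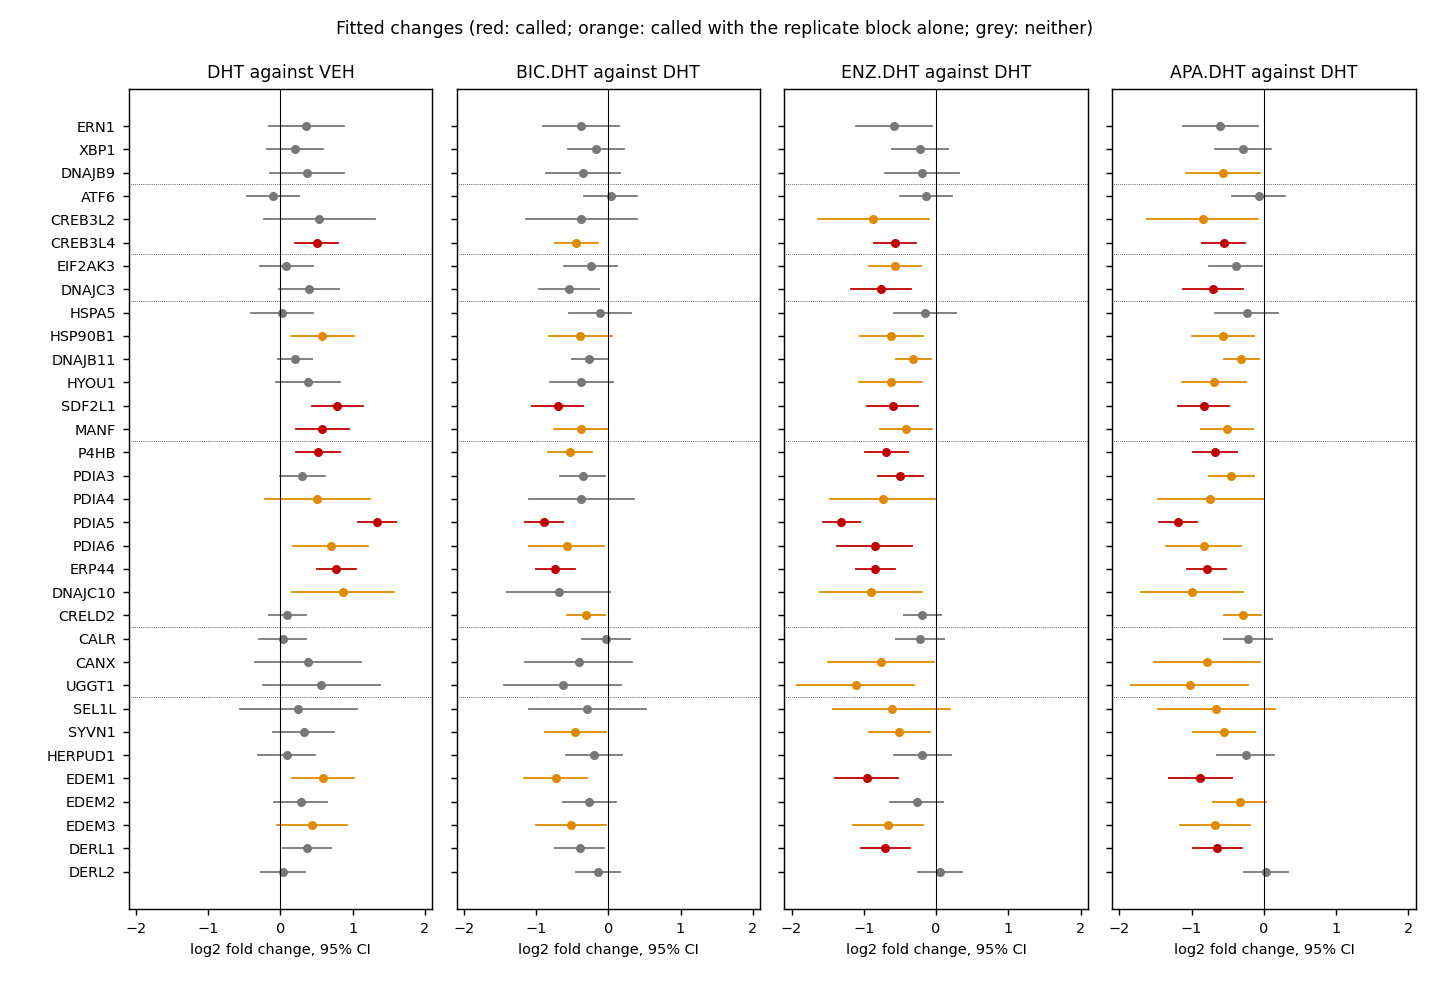
Log2 fold change on the log2(TPM + 1) scale with its 95% interval for the 33 tested members in DHT against VEH and in each antagonist with DHT against DHT alone (red, called without the block; orange, called with the replicate block alone; grey, neither). Red points lie to the right of 0 in the DHT panel and to the left in the other 3, and the 3 antagonist panels share the DHT libraries.

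PDIA5 and ERP44 were the members with the lowest adjusted p in each of the 3 comparisons. PDIA5 was at 34.5 and 34.6 TPM in BIC.DHT, 25.9 and 25.01 TPM in ENZ.DHT and 26.1 and 29.5 TPM in APA.DHT. All 6 values were below both DHT libraries; those with BIC were above both VEH libraries, and those with ENZ and APA lay near them. With BIC its log2 fold change was -0.88 (SE 0.12, adjusted p = 0.00277), with ENZ -1.31 (SE 0.12, adjusted p = 0.000107) and with APA -1.19 (SE 0.12, adjusted p = 0.000208). ERP44 was at 14.9 and 14.8 TPM in BIC.DHT, 13.7 and 13.8 TPM in ENZ.DHT and 13.5 and 14.9 TPM in APA.DHT, all within 1 TPM of a VEH replicate. Its log2 fold changes were -0.73, -0.84 and -0.79 (SE 0.12 each, adjusted p = 0.00909, 0.00174 and 0.00269). The PDIA5 calls held with any library of the groups compared left out, and so did those of ERP44 with ENZ and APA. With BIC, ERP44 kept its call only without DHT replicate 2.

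SDF2L1 was the third member called with every antagonist. It was at 21.1 and 22.4 TPM in BIC.DHT, 25.1 and 21.7 TPM in ENZ.DHT and 23.5 and 16.5 TPM in APA.DHT, and in the last of these the replicates differed by more than in any other group. In log2, it changed by -0.70, -0.60 and -0.83 relative to DHT (SE 0.16 each, adjusted p = 0.0428, 0.0389 and 0.00977). Leaving out any library of the groups compared ended its call with BIC and with ENZ. P4HB and CREB3L4 were called with ENZ and APA, and with BIC in the fit with the block alone. P4HB was at 832 and 775 TPM in BIC.DHT, 673 and 769 TPM in ENZ.DHT and 691 and 758 TPM in APA.DHT, with log2 fold changes of -0.53, -0.69 and -0.68 (adjusted p = 0.0686, 0.0111 and 0.0123). CREB3L4 was at 88.6 and 103 TPM, 82.6 and 92.03 TPM and 84.9 and 91.4 TPM in the same order, with log2 fold changes of -0.44, -0.57 and -0.55 (adjusted p = 0.119, 0.0239 and 0.0284). For both genes all 6 values were below both DHT libraries, and both lost their calls without replicate 1 of the antagonist group. MANF, at 150.1 and 167 TPM in BIC.DHT, 158 and 153 TPM in ENZ.DHT and 133 and 157 TPM in APA.DHT, was called with each antagonist only in the fit with the block (adjusted p = 0.295, 0.141 and 0.0781 without it and 0.046, 0.0189 and 0.00675 with it).

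DNAJC3, EDEM1 and DERL1 were called lower with ENZ and APA although DHT against VEH had not called them without the block. EDEM1 was at 16.03 and 15.6 TPM in BIC.DHT, 11.4 and 15.4 TPM in ENZ.DHT and 11.7 and 17.0 TPM in APA.DHT, and the 2 values of replicate 1 with ENZ and APA were the lowest of the series. Its log2 fold changes were -0.73 with BIC, -0.96 with ENZ and -0.88 with APA (adjusted p = 0.079, 0.0125 and 0.0202). With the block EDEM1 was also called with BIC (adjusted p = 0.0298), where both replicates were below both DHT libraries. DERL1 was at 36.1 and 36.6 TPM, 25.8 and 33.05 TPM and 26.5 and 35.1 TPM in that order of groups, and its log2 fold changes were -0.40, -0.70 and -0.64 (adjusted p = 0.234, 0.0167 and 0.0266). DNAJC3 was at 13.6 and 14.1 TPM, 10.0 and 13.7 TPM and 10.1 and 14.7 TPM, with log2 fold changes of -0.54, -0.76 and -0.71 (adjusted p = 0.182, 0.0294 and 0.0419). In each of these 3 genes replicate 1 was below replicate 2 with ENZ and with APA, and the calls were lost without replicate 1 of the antagonist group.

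PDIA3 and PDIA6 were called lower with ENZ alone in the fit without the block. PDIA3 was at 486 and 499.8 TPM in BIC.DHT, 396 and 502 TPM in ENZ.DHT and 407 and 519.6 TPM in APA.DHT, so that replicate 1 with ENZ and APA was well under replicate 2. Its log2 fold changes were -0.35, -0.50 and -0.45 (adjusted p = 0.255, 0.0492 and 0.0735, the last 0.0171 with the block). PDIA6 was at 111 and 136 TPM, 81.5 and 126 TPM and 85.3 and 123 TPM, with log2 fold changes of -0.58, -0.85 and -0.83 (adjusted p = 0.268, 0.045 and 0.0532, the last 0.000772 with the block). The difference between ENZ and APA was itself not called for either gene. Both calls were lost without ENZ.DHT replicate 1.

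The stress sensors, XBP1 and BiP were not called with any antagonist without the block. HSPA5 was at 189 and 224 TPM in BIC.DHT, 178 and 226 TPM in ENZ.DHT and 152 and 234 TPM in APA.DHT, where each replicate 2 was near or above the DHT libraries and each replicate 1 below them. Its log2 fold changes of -0.11, -0.15 and -0.24 (SE 0.20 each) turned to 0.01, 0.02 and 0.07 without replicate 1 of the antagonist group. XBP1 was at 94.3 and 109 TPM, 89.9 and 106 TPM and 80.03 and 108 TPM, which overlapped DHT with each antagonist, and its adjusted p was 0.734, 0.44 and 0.326. ERN1 was at 10.5 and 8.09 TPM, 7.32 and 8.48 TPM and 6.57 and 9.11 TPM, all under both DHT libraries, with log2 fold changes of -0.38, -0.58 and -0.60 (adjusted p = 0.514, 0.147 and 0.142). ATF6 was at 11.6 and 11.9 TPM, 9.34 and 11.4 TPM and 9.04 and 13.1 TPM, on either side of its DHT values with APA, and had log2 fold changes of 0.03, -0.14 and -0.07. EIF2AK3 was at 18.7 and 17.3 TPM, 13.8 and 14.5 TPM and 13.7 and 18.99 TPM. The change of EIF2AK3 was -0.24 with BIC, -0.57 (SE 0.17, adjusted p = 0.0545, 0.0203 with the block) with ENZ, called only with the block, and -0.39 with APA (adjusted p = 0.176).

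The remaining members fell with the block alone or not at all. With BIC the block added HSP90B1 (-0.39), PDIA6 (-0.58), CRELD2 (-0.31), SYVN1 (-0.45) and EDEM3 (-0.51) to P4HB, CREB3L4, MANF and EDEM1. With ENZ and APA, UGGT1 had the largest change among them, -1.11 (SE 0.37, adjusted p = 0.0846, 0.00347 with the block) with ENZ and -1.02 (SE 0.37, adjusted p = 0.115, 0.00582 with the block) with APA, with replicate 1 at 7.28 and 6.73 TPM and replicate 2 at 13.3 and 16.3 TPM. CREB3L2, HSP90B1, DNAJB11, HYOU1, PDIA4, DNAJC10, CANX, SEL1L, SYVN1 and EDEM3 were called lower with both ENZ and APA in the fit with the block, with -0.87 and -0.85 for CREB3L2 and -0.31 and -0.31 for DNAJB11. CRELD2 and EDEM2, and DNAJB9, were called with APA in that fit and not with ENZ. CALR and HERPUD1 were called in none of the comparisons with either fit; the log2 fold change ran from -0.23 with APA to -0.04 with BIC in CALR and from -0.25 with APA to -0.19 with ENZ in HERPUD1. DERL2 was the only member above 0 with ENZ and with APA (0.05 and 0.03, not called). Of the 16636 genes tested, 8065 were above 0 with ENZ and 8315 with APA.

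**Figure D4:**
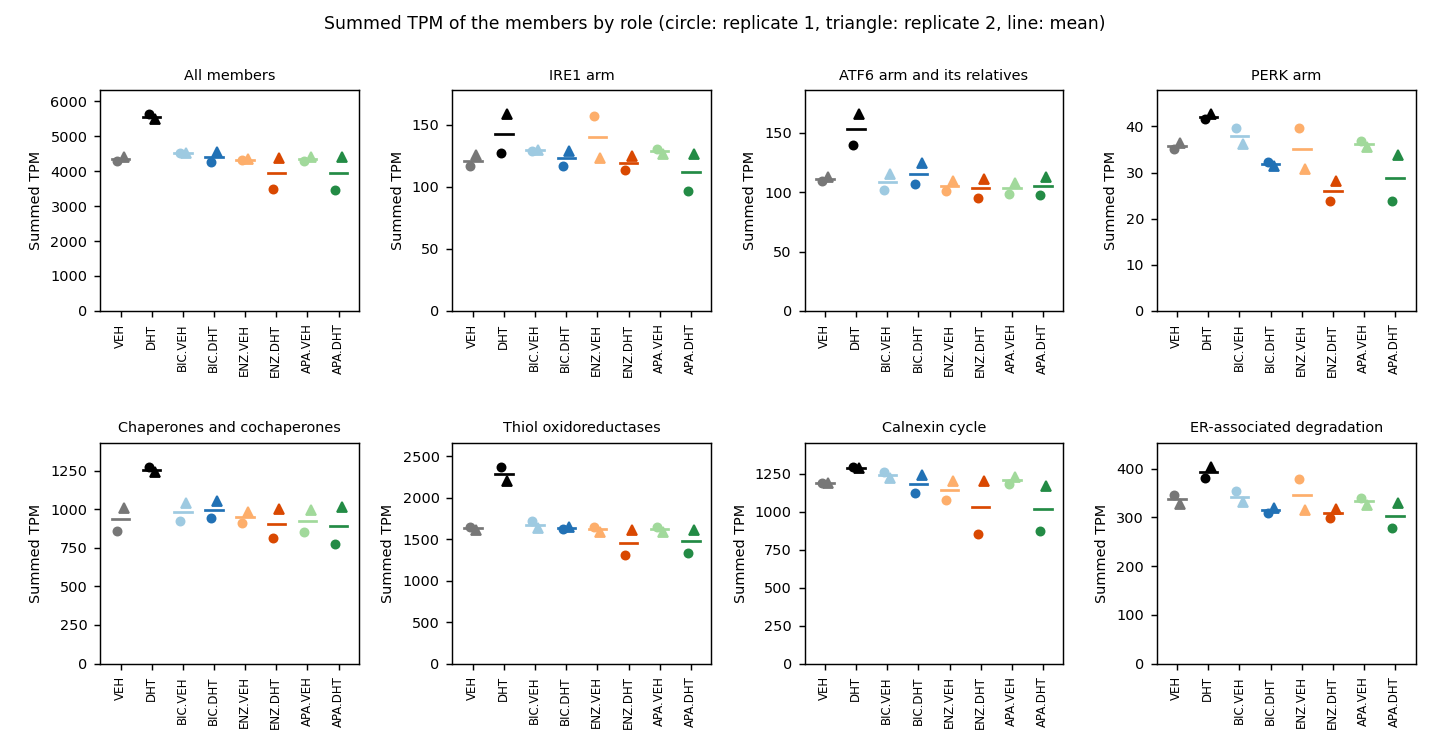
Summed TPM of all members and of each of the 7 roles in the 16 libraries (circle replicate 1, triangle replicate 2, line the mean of a group), with each axis starting at 0. The DHT group is highest in every panel by its mean, with the widest step in the thiol oxidoreductases, and replicate 1 of ENZ.DHT and APA.DHT lies under replicate 2 in every panel.

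Summed by role, the DHT to VEH ratio of mean levels was 1.40 in the thiol oxidoreductases, 1.38 in the ATF6 arm and its relatives, 1.34 in the chaperones, 1.18 in the IRE1 arm, 1.18 in the PERK arm, 1.16 in ER-associated degradation and 1.09 in the calnexin cycle. These ratios follow the most abundant members of a role. In the ATF6 arm the sum is mostly CREB3L4, in the IRE1 arm XBP1 and in the calnexin cycle CALR. The thiol oxidoreductase sum is mostly P4HB and PDIA3. By gene, the ratio in the calnexin cycle was 1.02 for CALR, 1.31 for CANX and 1.53 for UGGT1. In the calnexin cycle DHT was at 1298 and 1287 TPM and VEH at 1192 and 1189 TPM. With DHT present, the sum over all members was 4256 and 4544 TPM with BIC, 3505 and 4393 TPM with ENZ and 3476 and 4401 TPM with APA, all under both DHT libraries (5638 and 5496 TPM), and its ratio to VEH was 1.01, 0.905 and 0.903.

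Whether DHT acted differently in the presence of an antagonist was tested as an interaction, the DHT response with the antagonist minus the response without it. PDIA5 and ERP44 were called lower with each antagonist, 6.06% of the members tested, against 0.667% of all genes with BIC, 1.05% with ENZ and 0.805% with APA. For PDIA5 the interaction was -1.16 (BIC, SE 0.17), -1.36 (ENZ) and -1.04 (APA), and for ERP44 it was -0.87 (SE 0.17), -0.84 and -0.88. With the block BIC kept these 2 calls (3.15% of all genes), ENZ had 9 (5.72%) and APA 6 (4.91%), the added genes being CREB3L4, HSP90B1, P4HB and PDIA6 with both ENZ and APA, and CREB3L2, DNAJC10 and EDEM1 with ENZ. Fits to the groups compared alone gave 1, 0 and 0 calls, with 154, 43 and 36 over all genes. When 1 library was left out, calls over all genes fell in each interaction. Leaving out 1 library gave 0 to 1 calls with BIC, 1 with ENZ each time and 0 to 2 with APA.

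DHT against solvent within an antagonist had no member called in either fit (limma, 0 with BIC, ENZ and APA). All genes called in either direction came to 0% with BIC in both fits, to 0.00601% with ENZ in both fits, and to 0.00601% with APA (0.024% with the block). At an unadjusted p below 0.05 there were 0 members with BIC, 1 with ENZ (EIF2AK3, -0.47) and 1 with APA (PDIA5, 0.29, SE 0.12), and 0, 3 and 3 with the block, where all genes at that threshold came to 1.41%, 3.25% and 2.45% (4.62%, 9.55% and 6.96% with the block). Set against VEH, the groups with antagonist and DHT also had 0 members called, where 0.012% of all genes were called with BIC (0.529% with the block), 0.00601% with ENZ in both fits and 0% with APA in both fits. At an unadjusted p below 0.05 there were 1, 1 and 0 members, against 4.71%, 4.41% and 3.05% of all genes. With the block there were 2, 3 and 1 members (6.06%, 9.09% and 3.03% of those tested), against 12.7%, 14.4% and 8.65% of all genes. Among these members was PDIA5 in BIC.DHT, at 0.45 with a 95% interval of 0.19 to 0.71 and an adjusted p of 0.637. Of the rise of PDIA5 with DHT in log2(TPM + 1), 33.7% and 33.4% were left with BIC in replicates 1 and 2, -0.74% and 3.45% with ENZ, and 0.28% and 18.6% with APA. For ERP44 the shares were 2.51% and 8.30% (BIC), -11.8% and -5.04% (ENZ) and -14.2% and 10.6% (APA). Some shares of the other 4 members called with DHT were far apart between replicates: SDF2L1 kept 42.2% and 5.40% with ENZ and 30.6% and -40.0% with APA, MANF 46.9% and -3.51% with ENZ, P4HB -66.4% and 1.32% with ENZ and -58.9% and -2.91% with APA, and CREB3L4 -32.3% and -2.27% with ENZ. With BIC the shares of these 4 ran from -8.14% (P4HB) to 37.3% (MANF). These are descriptions of genes chosen for that rise.

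The antagonists were compared with each other at the same dose and time in the presence of DHT, in 3 pairs. Enzalutamide and apalutamide share a thiohydantoin ring that bicalutamide lacks. No member was called for any pair with limma in either fit. All genes called came to 0.00601% for ENZ.DHT against BIC.DHT (0.012% with the block), 0% for APA.DHT against BIC.DHT (0.0541%) and 0.00601% for APA.DHT against ENZ.DHT in both fits, and members at an unadjusted p below 0.05 to 1, 1 and 0 (6, 3 and 0 with the block), where all genes at that threshold came to 3.4%, 2.9% and 0.613% (12.4%, 9.88% and 1.39% with the block). PDIA5 was that member in both pairs with BIC: its log2 difference was -0.43 for ENZ minus BIC (95% interval -0.69 to -0.16, adjusted p = 0.93, 0.149 with the block) and -0.31 for APA minus BIC (95% interval -0.57 to -0.04, adjusted p = 1.0). Between APA and ENZ its difference was 0.12, with an interval of -0.14 to 0.38. For ERP44 the intervals were -0.37 to 0.16 between ENZ and BIC, -0.33 to 0.20 between APA and BIC and -0.22 to 0.31 between APA and ENZ. HSPA5 had -0.47 to 0.39, -0.56 to 0.31 and -0.52 to 0.34 in the same order, and between APA and ENZ the intervals were -0.27 to 0.36 for PDIA3 and -0.50 to 0.54 for PDIA6. The intervals of ERP44, HSPA5, PDIA3 and PDIA6 include 0 and leave room for differences of the sizes given.

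Without DHT, the antagonists were compared with VEH, and no member was called with limma in either fit. All genes called came to 0% with BIC (0.018% with the block), 0% with ENZ in both fits and 0.00601% with APA (0.012% with the block). At an unadjusted p below 0.05 there was 1 member with BIC in both fits, PDIA5 (3.03% of those tested), and 0 with ENZ and APA. All genes at that threshold came to 1.17%, 0.836% and 0.908% (3.24%, 2.9% and 2.4% with the block). The median log2 fold change of the members was 0.06 with BIC, 0.02 with ENZ and 0.01 with APA. PDIA5 was at 31.3 and 29.9 TPM in BIC.VEH, 25.8 and 26.3 TPM in ENZ.VEH and 23.6 and 21.5 TPM in APA.VEH, above both VEH libraries with BIC and below both with APA. Its log2 fold change with BIC was 0.28 (SE 0.12, unadjusted p = 0.0399, adjusted p = 1.0).

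The other members given by library stayed near VEH in these groups. In BIC.VEH, ENZ.VEH and APA.VEH, ERP44 was at 16.7 and 15.3, 14.9 and 13.9 and 16.1 and 14.6 TPM. SDF2L1 was at 20.4 and 20.5, 19.9 and 22.8 and 18.97 and 16.8 TPM, where APA held both values under the VEH replicates. P4HB was at 875 and 765, 872 and 762 and 837 and 741 TPM, with replicate 1 the higher in each group, as in VEH. CREB3L4 was at 80.5 and 93.96, 80.5 and 88.8 and 78.9 and 86.4 TPM and MANF at 142 and 154, 132 and 157 and 107 and 144 TPM; in these genes replicate 2 was the higher in each group, again as in VEH. PDIA3 was at 533 and 522, 491 and 493 and 530.3 and 526 TPM and PDIA6 at 109.8 and 132, 98.3 and 121 and 103 and 126 TPM, on either side of the VEH values.

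Among the sensors and their partners, replicate 1 of ENZ.VEH stood out. ERN1 was at 11.2 and 8.38, 14.4 and 9.03 and 10.6 and 8.63 TPM in BIC.VEH, ENZ.VEH and APA.VEH, and XBP1 at 103 and 109, 124 and 103 and 106 and 108 TPM. Its ERN1 level was the highest of the series and its XBP1 level second to DHT replicate 2. EIF2AK3 was at 24.01 and 21.8, 22.9 and 17.5 and 21.1 and 20.8 TPM, ATF6 at 13.6 and 12.03, 13.1 and 12.2 and 13.3 and 12.9 TPM and HSPA5 at 211 and 234, 236 and 225 and 203 and 241 TPM. DNAJC3 was at 15.6 and 14.4, 16.7 and 13.3 and 15.9 and 14.7 TPM. For the degradation genes, EDEM1 was at 19.2 and 15.8, 20.1 and 15.9 and 18.5 and 15.9 TPM and DERL1 at 39.1 and 36.5, 37.3 and 32.8 and 38.7 and 35.7 TPM, with replicate 1 above replicate 2 throughout.

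Other genes of the same compartment were read from lists written alongside the members, to be set against the 3.63% of all genes called higher with DHT (10.6% with the block). With DHT, 4 of 24 other ER folding enzymes were called higher (7 with the block), led by CLGN, a calnexin relative, from 16.3 and 13.7 to 65.9 and 62.2 TPM in replicates 1 and 2, and ERO1A, the oxidase that recharges the disulfide isomerases, from 7.92 and 7.77 to 18.1 and 15.9 TPM. Their log2 fold changes were 2.03 (SE 0.28, adjusted p = 0.00126) and 1.02 (SE 0.20, adjusted p = 0.0092). Of 17 genes for translocation into the ER, 5 were called higher (9 with the block), led by SEC11C, a signal peptidase subunit, at 1.72 (SE 0.34, adjusted p = 0.00909), and SSR3, a subunit of the translocon-associated complex, at 1.18 (SE 0.16, adjusted p = 0.0012). Of 17 other degradation genes 2 were called higher in both fits (11.8%), DERL3 at 1.15 (SE 0.26, adjusted p = 0.0171) and SELENOS at 0.62 (SE 0.16, adjusted p = 0.0338). None of these lists had a member called lower without the block, and the folding enzymes had 1 with it. Over all 16636 genes tested, 1105 were called lower (2797 with the block). Their medians were 0.17, 0.31 and 0.03, against 0.38 for the members.

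The other 3 lists are further from folding. The 10 genes of PERK output had 0 calls with DHT, 1 at an unadjusted p below 0.05, and 1 call with the block. ATF4, the transcription factor that PERK signalling translates, was at 292 and 314 TPM in VEH against 263 and 372 TPM in DHT, which overlap, and its log2 fold change was 0.05 (SE 0.15, adjusted p = 0.89). DDIT3, the stress-induced factor CHOP, was at 45.3 and 39.8 TPM in VEH against 26.2 and 27.7 TPM in DHT, and was lower in both DHT libraries without a call, at -0.64 (SE 0.47, adjusted p = 0.441). In the ENZ groups the DDIT3 replicates were far apart, with 108 and 43.6 TPM in ENZ.VEH and 124 and 47.6 TPM in ENZ.DHT. Both ENZ.DHT values and both APA.DHT values (74.1 and 40.5 TPM) were above both DHT values. In these 2 groups replicate 2 was near the VEH values and only replicate 1 was well above them. With the block DDIT3 was called higher than in DHT alone with ENZ (1.48, adjusted p = 0.076, 0.00453 with the block) and with APA (0.998, adjusted p = 0.221, 0.0318 with the block), opposite in sign to the called members. With BIC it was called in neither fit (0.67, adjusted p = 0.582, 0.179 with the block). Of the 9 tested genes that process or dampen the stress signals, 1 was called (3 with the block), EIF2S1, the translation factor that PERK phosphorylates, at 0.91 (SE 0.22, adjusted p = 0.0225). Of 15 tested cytosolic chaperones 2 were called higher (4 with the block, and 1 lower), HSPA4 at 0.49 (SE 0.13, adjusted p = 0.0379) and CDC37 at 0.47 (SE 0.10, adjusted p = 0.015), with a median of 0.02.

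**Figure D5:**
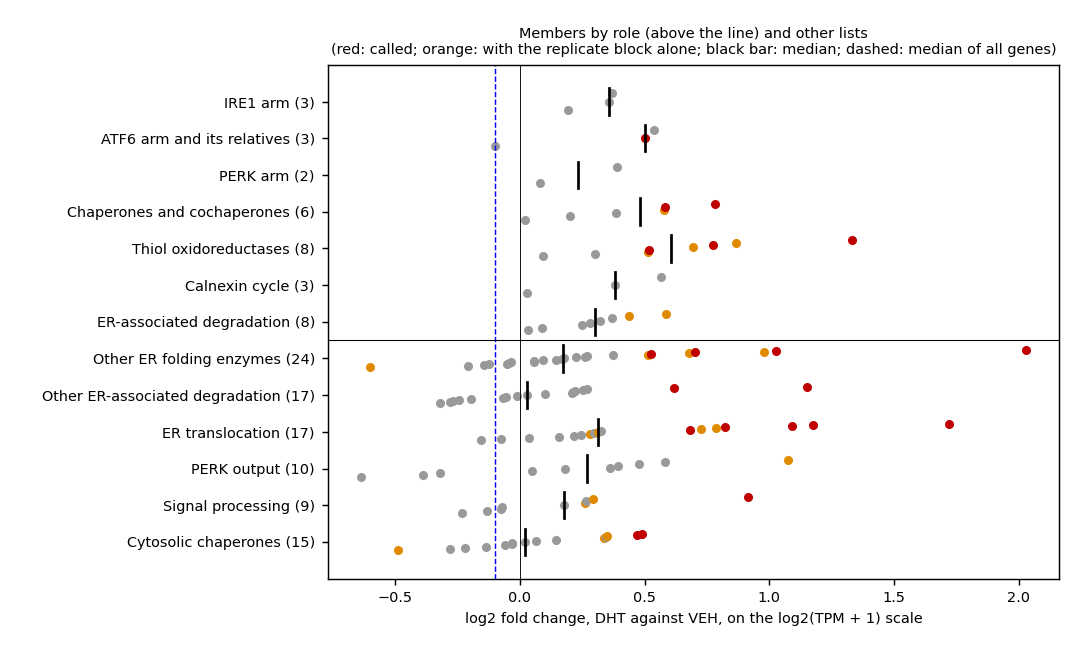
Log2 fold change in DHT against VEH on the log2(TPM + 1) scale for each tested gene of the member roles (above the line) and of the other lists (below it), with the number of tested genes in brackets; red, called; orange, called with the replicate block alone; black bar, list median; dashed line, median of all genes. PDIA5 at 1.33 is the member furthest to the right, CLGN at 2.03 the furthest gene of the other lists, and the cytosolic chaperones have a median of 0.02.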

How the data were processed

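Total RNA of 16 LNCaP cultures, 8 groups of 2 samples labelled as biological replicates, was sequenced as stranded libraries of 125 bp read pairs, about 40 M pairs each per the labels. The submitters' processing notes name FastQC 0.11.9, Trim Galore 0.6.5, STAR 2.7.2b, RSEM 1.3.3 and the build GRCh38. The authors deposited a table of TPM for 60642 gene symbols, of which 26439 were 0 in every library. The columns summed to 976190 to 983114, so a small share of transcripts may lie outside the table. TPM keeps no read depth, so neither counting intervals nor detection limits could be given. Whether counting used the strand is not given in the sources used here, and 19 of the 34 members overlap another annotated gene. No column belonged to other samples (0).

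Genes at TPM 1 or more in 2 or more libraries (16636) were tested on log2(TPM + 1) with limma 3.58.1 in R 4.3.3, with all 8 groups in 1 linear model, moderated two-sided tests of 19 contrasts and Benjamini-Hochberg adjustment over all genes tested in each contrast. Fold changes on this scale understate those of low genes. The p-values set a difference against the spread between these samples, pooled over the groups and moderated across genes. Tables were handled in Python 3.11.15 with pandas 2.3.3 and numpy 2.4.6. The fitting code was tested on simulated data with independent noise in each library. That simulation lacked the shared deviations of same-numbered replicates given next, so it does not bear on calls that depend on them. Same-numbered replicates of different groups deviated together (Pearson's r across genes of the deviations from the group means over 0.1 in 28 of 28 pairs of groups, from 0.20 to 0.64), so calls with the replicate number as a block are given beside those without it.

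The members, their roles and the other lists (other ER folding enzymes, other ER-associated degradation, ER translocation, PERK output, signal processing, cytosolic chaperones, luminal prostate markers and markers of other cell types) were chosen with earlier results of these data known. All members are named. Values in every library are given for members called in DHT against VEH or in an antagonist with DHT against DHT, and for HSPA5, XBP1, ERN1, ATF6 and EIF2AK3. Each other list apart from the cell type markers has at most 4 genes named for their change, the 2 highest and 2 lowest called fold changes with DHT, and ATF4 and DDIT3 are always named. Marker genes are named as a check of the cell type, those of other cell types after their values were seen. Positions and promoters are from RefSeq for GRCh38.p14. Alternatives were another pseudocount, other filters, median-ratio scaling, removal of mitochondrial genes, fits to the groups compared alone, the block, and leaving out libraries.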

Additional observations from a re-analysis of the deposited data

Results flagged for a closer look

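The DHT response of 2 members differed between cells with and without an antagonist by the test of the difference itself, the interaction term of the limma model with Benjamini-Hochberg adjustment over all genes tested. PDIA5 was at 59.4 and 70.3 TPM with DHT alone, and its interaction was -1.16 for BIC (SE 0.17, adjusted p = 0.00821, blocked by replicate 0.0015), -1.36 for ENZ (adjusted p = 0.00256, blocked 0.000462) and -1.04 for APA (adjusted p = 0.0124, blocked 0.00219). ERP44 was at 27.1 and 23.7 TPM with DHT alone, and its interaction was -0.87 for BIC (SE 0.17, adjusted p = 0.0383, blocked 0.0051), -0.84 for ENZ (adjusted p = 0.0365, blocked 0.00457) and -0.88 for APA (adjusted p = 0.0297, blocked 0.00371). The 3 interactions of a gene share the DHT and VEH libraries and are not independent of each other. No group had the 4 samples needed to look for single outlying values.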

How the results depend on the processing

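All 27 called changes of members (DHT against VEH, and each antagonist with DHT against DHT) kept their call with a pseudocount of 0.1, without mitochondrial genes, with a filter at TPM 5 and with the replicate block; 25 kept it under median-ratio scaling, 19 without a filter on low values and 1 in fits to the groups compared alone. All 189 of these values kept their sign. Leaving out 1 library kept the sign in 108 of 108 fits and the call in 49. The cause of a lost call was not tested. The count of called members with DHT was 3 without a filter, 12 with median-ratio scaling, 12 with the block and 1 in the fit to the groups compared alone. With BIC it was 12 with the block and 0 in the groups alone, with ENZ 23 and 0, and with APA 13 with median-ratio scaling, 25 with the block and 0 in the groups alone. For the interactions it was 1 with BIC without mitochondrial genes and 1 in the groups alone, 9 with ENZ with the block and 0 in the groups alone, and 6 and 0 with APA. The block changed no other count. Without both ENZ.DHT replicate 1 and APA.DHT replicate 1, an alternative chosen after seeing the data, the counts were 11 with DHT, 6 with BIC, 5 with ENZ and 3 with APA. Leaving out 1 library of the groups compared, where a lone sample was assumed to vary like the other groups, gave 2 to 4 calls with DHT, 1 to 2 with BIC, 2 to 13 with ENZ and 3 to 13 with APA, and for the interactions 0 to 1 with BIC, 1 to 1 with ENZ and 0 to 2 with APA. Over all genes, fits to the groups alone called 173, 0, 7 and 0 in DHT against VEH and in BIC.DHT, ENZ.DHT and APA.DHT against DHT. When 1 library was left out, calls over all genes moved as well and fell in most fits, so lost calls were not confined to the members.

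Of changes that were not called, ATF6 with DHT turned to 0.023 under median-ratio scaling. Leaving out 1 library reversed HSPA5 with DHT (-0.086 to 0.13), XBP1 with BIC (-0.35 to 0.018), ATF6 with BIC (-0.017 to 0.079), HSPA5 with BIC (-0.24 to 0.0091), HSPA5 with ENZ (-0.32 to 0.019), ATF6 with APA (-0.32 to 0.17) and HSPA5 with APA (-0.55 to 0.069). TPM keeps no read depth, so precision was judged from the spread between replicates, pooled over the 8 groups and moderated across genes.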
